A study of Mus musculus with 6 samples.

Results

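The cytosolic ribosome is built from ribosomal RNA and about one copy each of the small-subunit proteins (Rps genes) and large-subunit proteins (Rpl genes). Their mRNAs are among the most abundant of growing embryonic tissue, and most begin with a terminal oligopyrimidine tract, a C followed by an unbroken run of C or T, through which growth signals acting on mTOR and its effector Larp1 control their translation. Ribosomal protein genes were taken as all array probe sets whose annotation gives exactly 1 symbol of the form Rps or Rpl with a number, or Rpsa, Rplp0, Rplp1 or Rplp2, leaving out the kinases named Rps6k and mitochondrial ribosomal proteins. The rule uses names alone and no measured value. It gave 49 genes, 23 of the small and 26 of the large subunit, out of 18193 genes with 1 symbol on the array. They were read by 105 probe sets, from 1 to 6 per gene. A further 110 probe sets carry several symbols, at least 1 of them of a ribosomal protein, and are not members. Ribosomal protein genes read by such probe sets alone are not analysed here.

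The arrays came from whole mouse kidneys at embryonic day 12.5, 3 from normal mice and 3 from mice carrying a beta-catenin (Ctnnb1) allele with loxP sites around exons 2 to 6 together with a Hoxb7-Cre:Gfp transgene, whose recombinase acts in the ureteric bud, the epithelium that becomes the collecting ducts. Dissected tissue was sorted at random into 3 vials per group, the number of embryos per vial is not stated, and the word normal is all that describes the controls' genotype. Titles and source names give the knockout, while the description field of those samples repeats the wording for normal kidneys, and the groups below follow the titles. The labels name biological replicates without saying which animals went into each, so every p-value rests on the scatter among 3 vials per group, and that scatter can be partly technical.

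The brightest Ctnnb1 probe set read 5707, 6760 and 6549 on the normal arrays and 6777, 6779 and 6586 on the knockout arrays. Its difference did not pass (limma adjusted p = 0.695), and since the position of its probes relative to the deleted exons was not determined, it does not check the labels. Kidney markers were present, with all 9 measured genes of the mesenchyme list and all 9 of the ureteric bud list above the filter on dim probe sets. The mean log2 signal of the mesenchyme list lay between -0.04 and 0.04 on normal arrays and between -0.39 and -0.05 on knockout arrays, relative to the normal mean. Its summed signal overlapped between the groups, from 5774 to 6319 on normal and from 4959 to 5972 on knockout arrays. The ureteric bud list overlapped by both measures, with means from -0.14 to 0.14 and from -0.39 to -0.04 and sums from 3028 to 3727 and from 2623 to 3499. Lists of other cell types varied with single arrays. The summed signal of 10 skeletal muscle genes ran from 612 to 699 on normal arrays and from 739 to 6823 on knockout arrays, the highest being knockout replicate 2, although the mean over the muscle genes kept was lower on knockout replicate 3 than on normal replicate 3. Of that list Ckm lay below the filter. The sums ran from 731 to 1549 and from 1391 to 2070 for 10 macrophage genes, from 396 to 2420 and from 454 to 1689 for 9 chromaffin and sympathetic genes, and from 29140 to 39508 and from 35152 to 46585 for 8 erythroid genes, of which Hba-a1 and Epb42 lay below the filter. The part of these cells in the results below was not tested. In whole tissue, fewer cells of a type and less RNA per cell cannot be told apart.

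What the members share beyond their names was looked for at their transcription starts, in RefSeq promoters of the assembly GRCm38.p6 that run from 250 bases before to 50 bases after the annotated start. Of the 49 genes 43 matched, with 51 promoters. A tract was counted as a C followed by at least 6 further C or T, its first base within 10 bases of the annotated start. Only the strand that reads as the mRNA does was searched. Such a tract was found in 21 of these 51 promoters (41.2%), against 12.2% of all 32851 promoters listed. The windows below run from 15 bases before to 15 bases after the start. They are shown for genes whose values are described below, chosen after those values were seen. Of these, 6 genes have a tract by this measure, which does not require the tract to reach the start. For contrast, Rpl7l1 and the other listed promoter of Rps27l have none. Capitals mark the tract from its C nearest the annotated start.

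Rps9, chr7:3704026-3704055, plus strand: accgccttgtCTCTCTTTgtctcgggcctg

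Rps6, chr4:86857353-86857382, minus strand: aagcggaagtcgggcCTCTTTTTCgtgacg

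Rps10, chr17:27635230-27635259, minus strand: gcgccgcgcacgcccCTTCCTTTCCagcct

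Rps18, chr17:33955651-33955680, minus strand: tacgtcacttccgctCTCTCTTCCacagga

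Rps27, chr3:90213634-90213663, minus strand: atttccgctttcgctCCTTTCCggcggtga

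Rps27l, chr9:66946071-66946100, plus strand: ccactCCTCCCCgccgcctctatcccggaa

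Rps27l, other promoter, chr9:66946398-66946427, plus strand: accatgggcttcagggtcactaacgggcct

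Rpl7l1, chr17:46782642-46782671, minus strand: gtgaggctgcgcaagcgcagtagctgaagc

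As marked, the C nearest the start was the annotated first base in Rps6, Rps10, Rps18 and Rps27. The unbroken run of C or T reached further upstream, its first C lying 1 base before the start in Rps6, 2 in Rps18 and Rps27 and 3 in Rps10. In Rps9 that first C lay 5 bases before the start, and in Rps27l, a paralog of Rps27, 12 bases before it. The Rps27l tract ended before the annotated start, so an mRNA begun at that base would not contain it. The core of ETS family sites, CCGGAA, stood on either strand in 54.9% of member promoters and in 14.9% of all promoters. For the GC box GGGCGG these shares were 52.9% and 35.7%, for the YY1 type site AAGATGGC 7.84% and 2.75%, and for the TATA box TATAAA 11.8% and 13.6%. These are matches of letters in a window, not sites of binding.

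The deposited values are MAS5 signals, 1 per probe set and array on a linear scale. Of the 105 member probe sets, 95 passed the filter, a geometric mean signal above 14.7 over all 6 arrays, and they read 47 of the 49 genes. The 10 others never exceeded 25.8 on any array. They include the only probe sets of Rpl3l, the muscle paralog of Rpl3, and of Rps16, with highest signals of 14.0 and 8.8. Signals of different probe sets depend on their probes, so below each probe set is compared with itself between the groups. Differences are knockout minus normal on the log2 scale, with the standard error (SE) of the limma fit, and a probe set passed when its Benjamini-Hochberg adjusted p over all 27022 kept probe sets was below 0.05.

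Ribosomal protein signals filled the top of the array. Between 33 and 35 of the 100 brightest probe sets on each array were members, and between 35 and 42 more carried several symbols including a ribosomal protein. The brightest probe set of the array was one for Rps29 on normal replicate 1 and on knockout replicates 1 and 3, at 11958, 10969 and 11278. The 105 member probe sets held 5.12%, 5.25% and 4.86% of the summed signal on normal replicates 1 to 3, and from 4.97% to 5.0% on the knockout arrays. The knockout shares lie inside the range of the normal ones.

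Of the 95 tested probe sets 1 passed, a probe set for Rps9 that was higher in the knockout, a share of 1.05% where 0.581% of all probe sets passed. At an unadjusted limma p under 0.05 there were 13, a share of 13.7% against a background of 11.5%. Of these 7 were higher and 6 lower, where 5.74% and 5.72% of all probe sets were. The groups did not overlap for 15 members, 8 higher and 7 lower, or 15.8%, beside 17.9% of all probe sets (9.17% higher and 8.69% lower). By each of these counts the members were close to the array as a whole. Their median log2 difference was -0.02, and that over all probe sets tested was -0.01. By sign the members differed from the array as a whole. Negative differences made up a larger share of them, 69 of the 95, than of all probe sets, 14013 of 27022. Several probe sets can read 1 gene and all share the same arrays, so these signs are not separate evidence. The members' median was 0.01 without normal replicate 2. Small-subunit probe sets had a median of -0.03 (49 probe sets) and large-subunit ones of -0.02 (46 probe sets). Taking each gene once, by the mean of its kept probe sets, 1 of 47 genes passed, where 0.522% of all 12464 genes passed. It was Rps9, through the same probe set, and no member gene passed with the brightest probe set of each gene. An unadjusted limma p under 0.05 was found for 9 of the 47 genes, a larger share than the 12% of all genes (1493 of 12464). The gene mean weighs dim and bright probe sets alike. Of these genes, only Rps27l was read wholly above a geometric mean signal of 2000. Rps6, Rps4l, Rpl27a, Rpl12 and Rpl7l1 had kept probe sets below 2000 only. In Rps9, Rps20 and Rps18 no probe set above 2000 had an unadjusted limma p under 0.05.

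**Figure D1:**
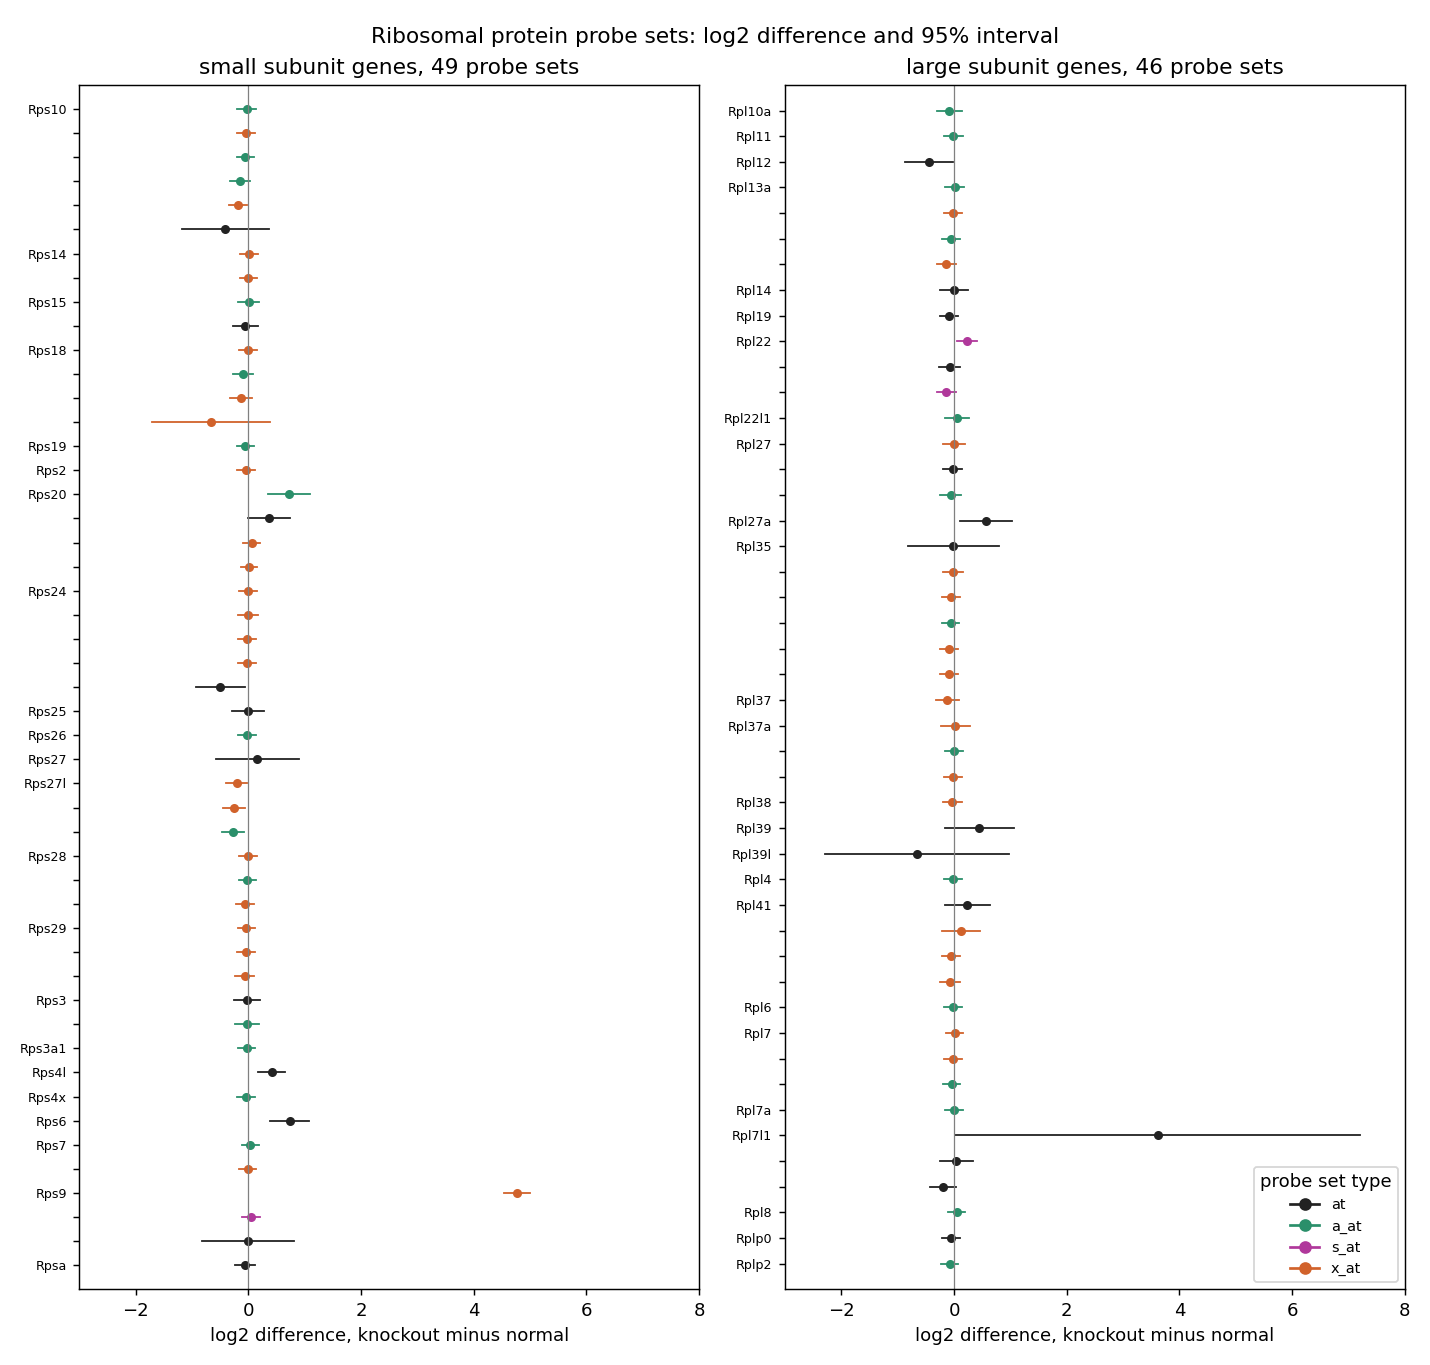
Log2 difference, knockout minus normal, of each of the 95 kept ribosomal protein probe sets (points) with its 95% interval from the limma fit (lines), for small-subunit genes on the left and large-subunit genes on the right. Each gene's name stands at its first probe set and colours give the probe set type. Most points lie close to 0, and the furthest from it are 1 probe set each of Rps9 at 4.76 and of Rpl7l1 at 3.62. Several dim probe sets also lie away from 0 on either side, among them Rps6 at 0.73 and Rps18 at -0.67.

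The passing probe set of Rps9, which encodes a small-subunit protein that joins early in subunit assembly, changed by far more than any other well-measured member. Probe set 1434624_x_at read 178, 173 and 145 on normal replicates 1 to 3 and 4420, 4786 and 4194 on knockout replicates 1 to 3. The groups are separated by a wide gap, and within each group the arrays are close together. The mean rose from 165 ± 17.8 to 4467 ± 299 (SD, n = 3 per group), which is 27.1-fold or 4.76 in log2 (SE 0.10, 95% interval from 4.53 to 4.99, limma adjusted p = 1.49e-07). Of all 27022 probe sets tested this one had the smallest p, and by size of difference it was number 3.

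The other Rps9 probe sets did not pass. Probe set 1433689_s_at read 5909, 6435 and 5780 on normal arrays and 6166, 6074 and 6390 on knockout arrays. Its groups overlap, and its difference was 0.04 (SE 0.07, 95% interval from -0.12 to 0.20, limma adjusted p = 0.853). Probe set 1426958_at, a dim one, read 137, 53.3 and 85.4 on normal arrays and 126, 62.5 and 77.3 on knockout arrays. It differed by -0.01 (SE 0.36, 95% interval from -0.83 to 0.81), an interval too wide to bound a change of moderate size. The disagreement between the Rps9 probe sets was itself tested, as the log2 ratio of 1434624_x_at over 1433689_s_at within each array. The ratio changed by 4.72 (SE 0.18, limma adjusted p = 0.000362 over all 10561 such pairs on the array), from a mean of -5.20 in normal to -0.48 in knockout. An Affymetrix name ending in _x_at marks a set with probes that can also bind other sequences, one in _s_at a set that reads transcripts of more than one gene or variant, one in _a_at variants of a gene, and a plain _at a set designed for 1 transcript. The ratio's call was lost when both arrays high in chromaffin genes, normal replicate 1 and knockout replicate 1, were left out (change 4.79, limma adjusted p = 0.101), an alternative added after the data were seen, while 1434624_x_at itself passed there (4.82). Which transcripts 1434624_x_at reads in these samples was not determined.

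**Figure D2:**
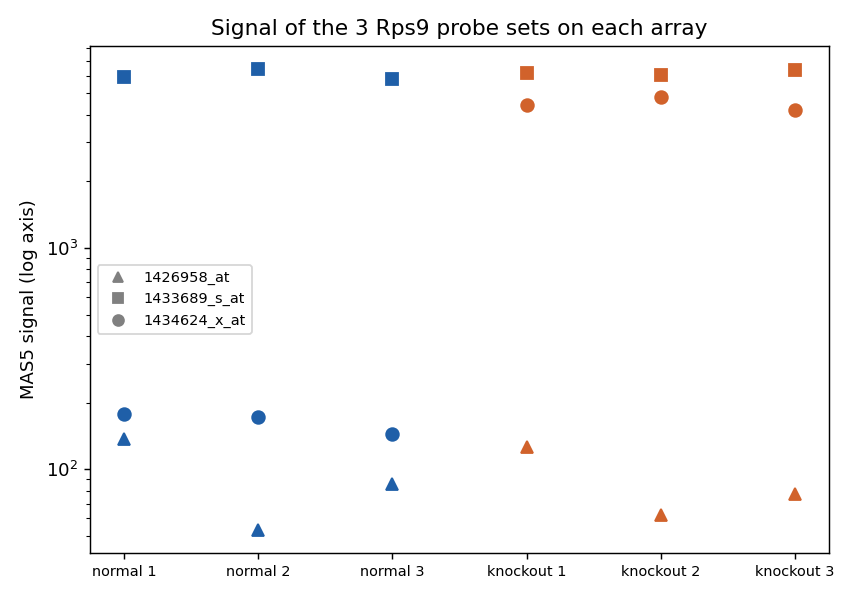
MAS5 signal (log axis) of the 3 Rps9 probe sets on each of the 6 arrays, with normal arrays in blue and knockout arrays in orange. The circles of 1434624_x_at rise from between 145 and 178 to between 4194 and 4786, while the squares of 1433689_s_at stay between 5780 and 6435 and the triangles of 1426958_at stay below 140.

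Genes beside Rps9 were read as well, a choice made after its values were seen. Of the 12 protein-coding genes nearest to it in GRCm38.p6, 6 on either side, 6 had kept probe sets, 9 in all. None of the 9 passed in limma at the adjusted threshold, and their differences ran from -0.97 to 0.22. The groups did not overlap for 5 of them, all lower in the knockout, among them both probe sets of the acyltransferase Mboat7 (-0.39 and -0.97). Over all probe sets 8.69% had knockout arrays entirely below the normal ones.

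Over all genes with several kept probe sets, 32 of 10561 further probe sets departed from the brightest one of their gene, 0.303%. Among the 48 such pairs of ribosomal protein genes 1 did, that of Rps9, and 2 had an unadjusted limma p under 0.05 (8.86% of all pairs did). The other was the Rps20 probe set described below.

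All kept members, those of Rps9 included, fell into a bright and a dim class. The split was set at a geometric mean signal of 2000 after the values were seen, with nothing between 1373 and 2443. The bright class held 69 probe sets of 36 genes, and these carry the most precise measurements. Their differences ran from -0.27 to 0.06, with a median of -0.03. Of the 69, 57 were negative, beside 14013 of all 27022 probe sets tested. Here too the signs share the same arrays and are not separate evidence. None passed in limma after adjustment, where 0.581% of all probe sets did. An unadjusted p under 0.05 was found for 4 (5.8%), beside 11.5% of all probe sets. All 4 were lower, where 5.72% of all probe sets were. For 63 of the 69, the 95% interval of the difference lay within a 1.25-fold change either way, which held for 13.7% of all probe sets. Among the 824 other probe sets above 2000 with no ribosomal protein symbol, the median difference was 0.02 and 583 lay within that interval. Of these 824, 356 were negative and 7.52% had an unadjusted limma p under 0.05. They were dimmer, with a median signal of 3078 against 7856 for the bright members, so the sets share a lower limit but not a level.

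The bright class varied more among the normal arrays than between the groups. Relative to the normal mean, its mean log2 signal stood at -0.00, 0.08 and -0.08 on normal replicates 1 to 3 and at -0.05, -0.06 and -0.04 on knockout replicates 1 to 3. The knockout arrays lie within the range of the normal ones. Normal replicate 2 was the highest of the 6 arrays for 54 of the 69 probe sets, and normal replicate 3 the lowest for 38. The 824 other, dimmer probe sets above 2000 stood at -0.08, 0.09 and -0.01 on normal and 0.01, 0.00 and 0.05 on knockout arrays, so normal replicate 2 was high there too. The standard deviation between knockout arrays was smaller than that between normal arrays for 66 of the 69 members, for 81.9% of those other bright probe sets and for 62.6% of all kept ones.

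**Figure D3:**
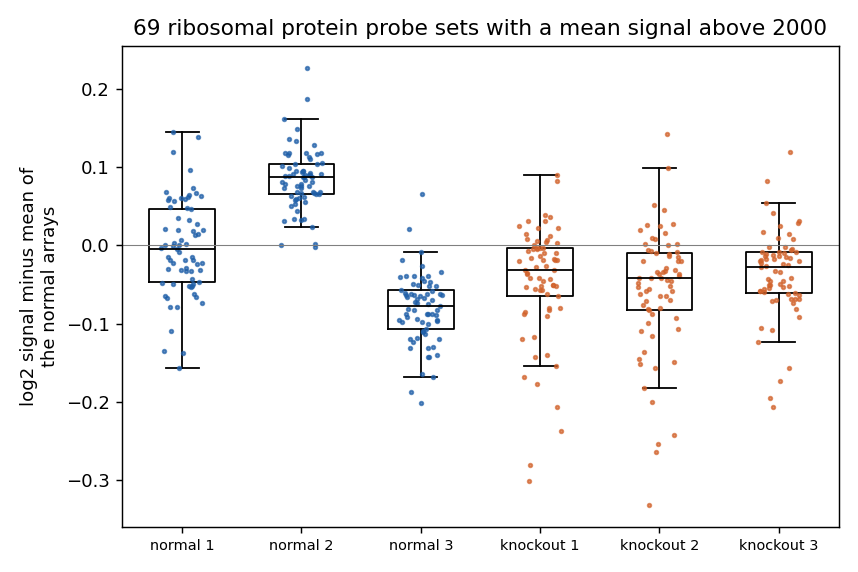
Log2 signal of the 69 ribosomal protein probe sets with a mean signal above 2000, each minus its own mean over the normal arrays, on the 6 arrays. Points are probe sets and boxes give the median and quartiles with whiskers to 1.5 times the interquartile range. Normal replicate 2 stands highest and normal replicate 3 lowest, with the 3 knockout arrays between them.

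By role, the stalk proteins that recruit translation factors did not pass. Rplp0 read 8845, 9368 and 8428 on normal arrays and 8890, 8320 and 8497 on knockout arrays, and Rplp2 differed by -0.08 (SE 0.07). Rpl11, which with Rpl5 binds and restrains Mdm2 when ribosome assembly fails, differed by -0.01 (SE 0.08). Rps19, a gene mutated in Diamond-Blackfan anaemia, differed by -0.06 (SE 0.07), with arrays from 6241 to 6728 in normal and from 6101 to 6311 in knockout kidneys. Rpsa, known also as the laminin receptor precursor, differed by -0.06 (SE 0.08). Rpl38, needed in mouse embryos for translating a subset of Hox mRNAs, differed by -0.03 (SE 0.07), and Rps3a1, among the brightest members, by -0.03 (SE 0.07). Each of these had a 95% interval within 1.25-fold, so a larger change of the probe set's signal falls outside it.

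Bright probe sets of the same gene gave like values. In the 17 genes with more than 1 bright probe set, the differences within a gene spanned from 0.01 to 0.15, with a median span of 0.05. The widest was that of Rps10, whose 5 bright probe sets ran from -0.18 to -0.03. The lowest of them, 1439374_x_at, read 6871, 6584 and 6306 on normal arrays and 5823, 5524 and 6042 on knockout arrays, without overlap, at -0.18 (SE 0.07, limma adjusted p = 0.387). In the 10 genes with both bright and dim probe sets, the span within a gene was larger, with a median of 0.38.

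The 3 probe sets of Rps27l, a paralog of Rps27 that p53 can induce, were the lowest of the bright class. Probe set 1450925_a_at read 3734, 3374 and 3060 on normal arrays and 2782, 2685 and 2927 on knockout arrays. Probe set 1435429_x_at read 3884, 3532 and 3202 on normal arrays and 2864, 2938 and 3083 on knockout arrays. Every knockout array lay below every normal array in both, and also in 1423254_x_at. Their differences were -0.27 (SE 0.09), -0.25 (SE 0.09) and -0.21 (SE 0.08), with limma adjusted p from 0.311 to 0.405, so none passed. The probe sets read the same gene on the same arrays and are not separate evidence. For Rps27 itself the member probe set was dim and differed by 0.16 (SE 0.33).

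**Figure D4:**
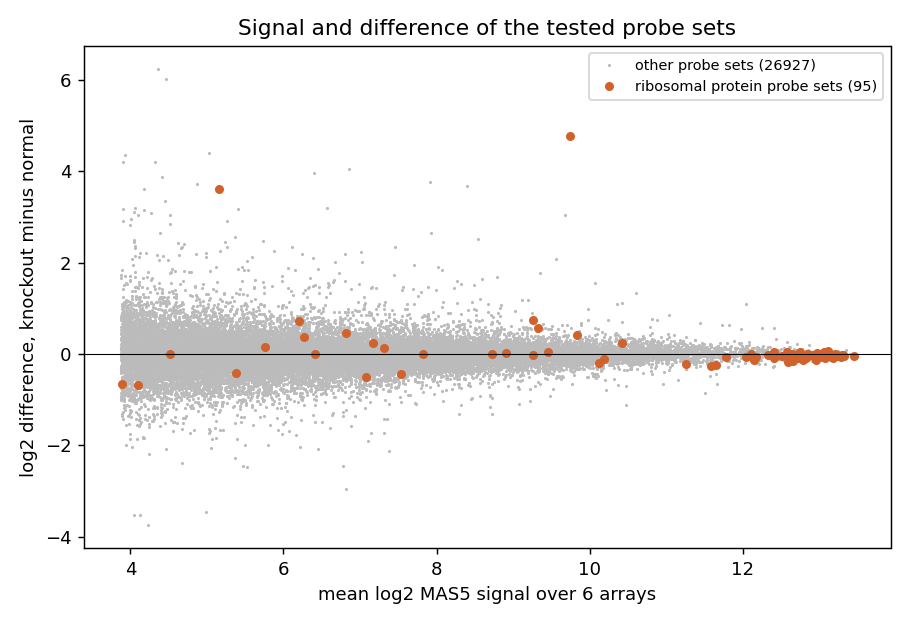
Log2 difference, knockout minus normal, against mean log2 MAS5 signal over the 6 arrays, for the 95 ribosomal protein probe sets (orange) and the other tested probe sets (grey). Members crowd at the bright end near 0, and the scatter of all probe sets widens toward dim signals.

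The dim class held 26 probe sets of 21 genes, 10 of them genes that also had bright probe sets. It includes the Rps9 probe set 1434624_x_at, which read above 2000 on every knockout array but far below it on the normal ones. Here 9 had an unadjusted limma p under 0.05, or 34.6% beside 11.5% of all probe sets. Of these 7 were higher and 2 lower, with Rps9 among the higher (background 5.74% and 5.72%). Of the rest, Rps6, the small-subunit protein phosphorylated by S6 kinases downstream of mTOR, had the smallest p. It read 419, 608 and 418 on normal arrays and 783, 716 and 871 on knockout arrays. All knockout arrays lie above all normal ones, and the mean went from 482 ± 109 to 790 ± 77.9 (SD, n = 3 per group). That is 0.73 in log2 (SE 0.15, limma adjusted p = 0.103). It passed when normal replicate 2 was left out (0.91, limma adjusted p = 0.0152) and with array weights (0.75, limma adjusted p = 0.0495), and over the alternatives run its adjusted p ranged from 0.0152 to 0.383. The other member probe set of Rps6 lay below the filter, at 11.3, 14.5 and 3.1 on normal and 19.3, 17.0 and 14.7 on knockout arrays.

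Rps20, a protein of the small subunit's head, showed the disagreement between bright and dim probe sets most clearly after Rps9. Its dim probe set 1450417_a_at read 56.3, 62.9 and 53.4 on normal arrays and 96.4, 91.9 and 94.6 on knockout arrays. The groups are well apart, at 0.72 (SE 0.16, limma adjusted p = 0.132). A further dim one, 1421935_at, differed by 0.36 (SE 0.17), while the bright ones, 1456373_x_at and 1456436_x_at, differed by 0.06 (SE 0.07) and 0.01 (SE 0.06). The ratio of 1450417_a_at to the brightest changed by 0.66 (SE 0.25, limma adjusted p = 0.496), so the departure did not pass.

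Rps4l, a gene related to the X-linked Rps4x, read 864, 798 and 730 on normal arrays and 1052, 955 and 1174 on knockout arrays. The groups do not overlap, at 0.41 (SE 0.10, limma adjusted p = 0.184), while the bright probe set of Rps4x differed by -0.04 (SE 0.07). Rpl27a, a large-subunit protein, read 357, 638 and 649 on normal arrays and 775, 814 and 760 on knockout arrays, at 0.57 (SE 0.21, limma adjusted p = 0.367), with normal replicate 1 well below the others. Rpl22 is an RNA-binding large-subunit protein. Its dim probe set 1448398_s_at differed by 0.23 (SE 0.08), and its bright ones by -0.14 (SE 0.08) and -0.08 (SE 0.08). Its paralog Rpl22l1 differed by 0.05 (SE 0.10).

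Rpl7l1, a nucleolar paralog of Rpl7, had the second largest member difference, which rests on a value below the 1.7 put in for zeros. Only zeros were replaced, so this lower value was kept as it was. Probe set 1439780_at read 39.8, 0.4 and 67.0 on normal arrays and 129, 111 and 138 on knockout arrays. All knockout arrays are higher, but the reading of 0.4 on normal replicate 2 sets most of the log2 difference of 3.62 (SE 1.59, 95% interval from 0.03 to 7.21, limma adjusted p = 0.436). With arrays centred on their medians this probe set passed. Its brighter probe sets differed by -0.20 (SE 0.10) and 0.04 (SE 0.13), and those of Rpl7 by -0.04 to 0.01.

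Among lower values in the dim class, the Rps24 probe set 1455195_at read 181, 142 and 160 on normal arrays and 149, 94.8 and 103 on knockout arrays, with overlap, at -0.50 (SE 0.19, limma adjusted p = 0.391). The 4 bright Rps24 probe sets lay between -0.02 and -0.01. Rpl12, a protein at the base of the stalk, read 220, 214 and 213 on normal arrays and 210, 121 and 157 on knockout arrays, at -0.44 (SE 0.19). Knockout replicate 1 is close to the normal arrays there. Rps18, of the small subunit's head, had a dim probe set at -0.67 (SE 0.46) and bright ones from -0.14 to -0.01. Rpl39, which lines the exit tunnel for the growing protein, differed by 0.45 (SE 0.27). Its paralog Rpl39l read 65.7 on normal replicate 1 and between 8.3 and 16.1 on the other arrays, so its difference of -0.66 (SE 0.72) rests on that array.

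**Figure D5:**
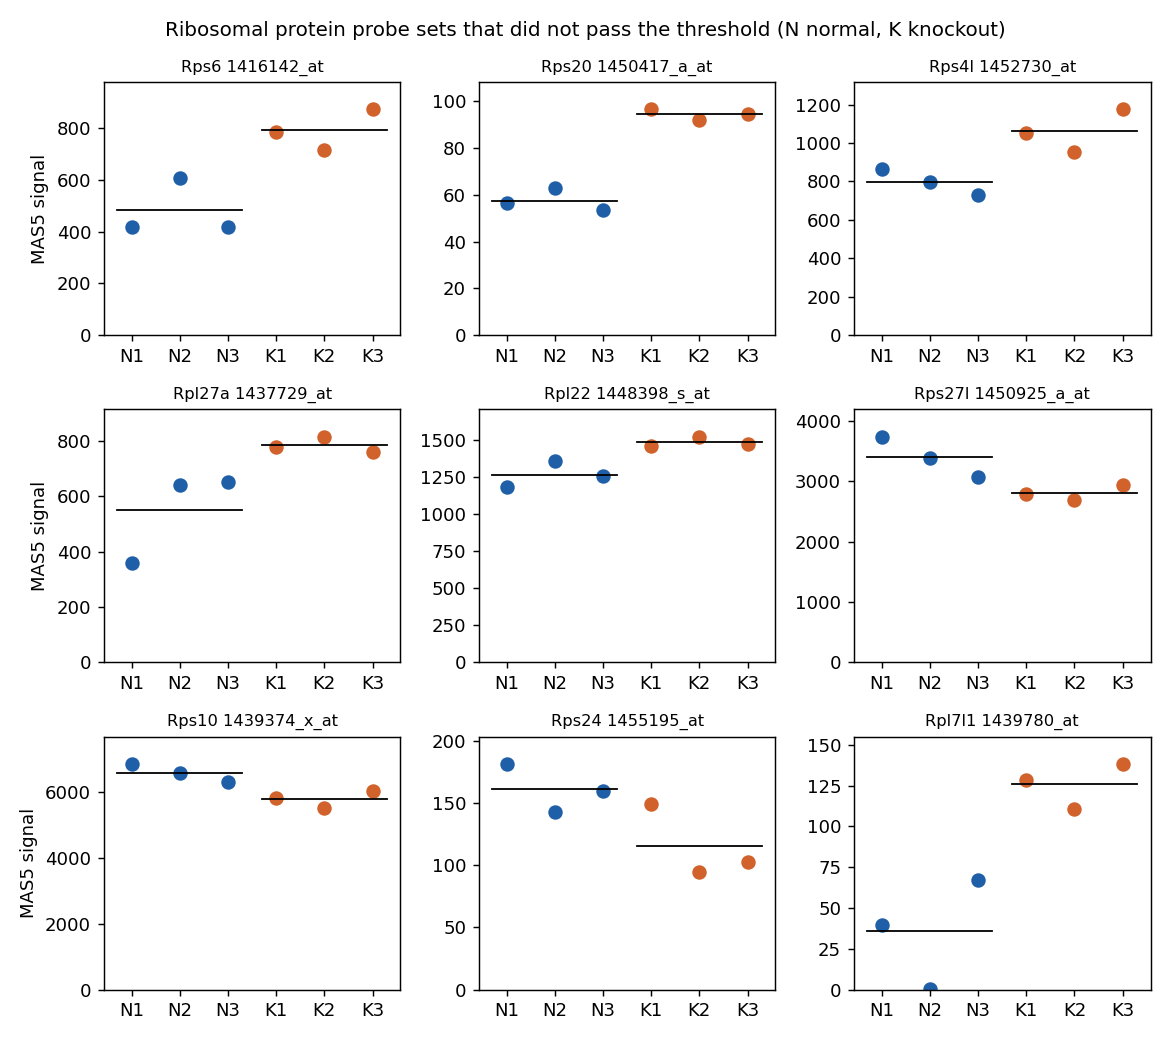
MAS5 signal on each array for 9 ribosomal protein probe sets that did not pass, with normal arrays (N1 to N3) in blue, knockout arrays (K1 to K3) in orange and group means as lines. Rps6, Rps20, Rps4l, Rpl27a, Rpl22 and Rpl7l1 have knockout arrays above all normal ones, Rps27l and Rps10 have them below, and Rps24 overlaps.

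Other genes of ribosome production had no passing probe set in limma. Of 118 kept probe sets for ribosome assembly factors 15 had an unadjusted p under 0.05, 12.7% against the background of 11.5%, with a median log2 difference of -0.04. Of these 12 were lower and 3 higher, where 5.72% and 5.74% of all probe sets were. The smallest p belonged to Rrp9, a component of the small nucleolar particle that helps process pre-ribosomal RNA. It read 240, 189 and 227 on normal arrays and 119, 129 and 148 on knockout arrays, at -0.73 (SE 0.14, limma adjusted p = 0.0821). Riok2, a kinase that matures the small subunit, was at 0.66 (SE 0.15) in 1 probe set and at 0.21 and 0.17 in the others. A list of translation factors and other mRNAs, drawn up by name as carrying an oligopyrimidine tract, had a median of 0.02 over 88 probe sets. Whether the genes of this list carry such a tract was not examined. Of the 88, 3 had an unadjusted limma p under 0.05 (3.41%). The smallest p were those of the initiation factors Eif5 at 0.56 (SE 0.20) and Eif3l at 0.99 (SE 0.40), both from dim probe sets. Fau, a small-subunit protein outside the naming rule, differed by -0.05 (SE 0.08).

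Mitochondrial ribosomal proteins, which serve a separate ribosome, had a median of -0.03 over 139 probe sets, with 12 at an unadjusted p under 0.05 (8.63%, background 11.5%), led by Mrpl55 at 0.53 (SE 0.16) and Mrps15 at -0.30 (SE 0.10). Regulators of growth upstream of ribosome production had a median of -0.10 over 32 probe sets, with 4 at an unadjusted p under 0.05 (12.5%), all lower, where 5.72% of all probe sets were lower. They were the kinase gene Akt1 at -0.32 (SE 0.11) and 3 probe sets of Mycn, a transcription factor that drives ribosome production. The brightest Mycn probe set read 940, 1003 and 917 on normal arrays and 869, 653 and 822 on knockout arrays, at -0.30 (SE 0.11, limma adjusted p = 0.393). The others were at -0.51 (SE 0.18) and -0.80 (SE 0.34). In the p53 response list, whose genes can rise when ribosome assembly fails, 0 of 24 probe sets passed in limma, 4 had an unadjusted p under 0.05 (16.7%), all higher, where 5.74% of all probe sets were, and the median was 0.04. Btg2 was at 0.93 (SE 0.20) and Phlda3 at 0.55 (SE 0.15), and Mdm2 differed by -0.05 and 0.02 in its probe sets.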

How the data were processed

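Each of the 6 samples is 1 single-colour Affymetrix array. The deposited values are intensities on a linear scale, 1 per probe set. The submitters' processing notes name MAS5, Affymetrix's summary of perfect-match against mismatch probes, with no settings stated. These values were used without further scaling, although array medians spanned 0.37 on the log2 scale. Centring the arrays on their medians moved the count of all probe sets passing from 157 to 434. Before taking log2, 15 zeros were replaced by 1.7 (the 10th percentile of values above 0). The file lists 45101 probe sets, 64 of them controls that were not used, and 27022 lay above the 40th percentile of mean log2 signal and were tested. In the platform annotation 34945 of the 45037 probe sets that are not controls have 1 symbol, 932 several and 9160 none. Symbols were updated through gene identifiers of the GRCm38.p6 reference table, which changed none of the members.

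The test was limma (version 3.58.1, R 4.3.3), with lmFit and trended eBayes, run on all kept probe sets, on gene means and on within-gene ratios, each with Benjamini-Hochberg adjustment over the whole table, after a check on simulated data. The number of arrays limits the precision. Ratios of 3' to 5' signal ran from 0.788 to 0.832 for Gapdh and from 1.27 to 1.42 for beta-actin. The 18S ribosomal RNA controls were uneven. Their 5' probe set read 103, 339 and 2101 on normal replicates 1 to 3 and 5024, 1357 and 3881 on knockout replicates 1 to 3. Their 3' probe set read 41.7 on normal replicate 1 and from 308 to 352 on the other arrays. The bearing of this on the results was not tested. The members and lists were chosen with earlier results of these data known. Members named are those with the smallest p in each direction, the widest spread between probe sets, the largest mean differences, the brightest and dimmest, and genes fixed by name. Replicate numbers were not treated as pairing the arrays, and the labels do not say whether they do.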

Additional observations from a re-analysis of the deposited data

Results flagged for a closer look

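A signal outside the member probe sets passed the threshold. The annotation of 103 kept probe sets gives several symbols, at least 1 of them of a ribosomal protein. Among the 103, 1 (0.971%) passed, higher in the knockout, where 0.581% of all probe sets passed in either direction. It read 305, 348 and 327 on normal replicates 1 to 3 and 668, 674 and 497 on knockout replicates 1 to 3, without overlap. Its log2 difference was 0.90 (SE 0.13, limma adjusted p = 0.0238). It is not assigned to a gene here. The median over the 103 was -0.04, with 25 higher and 78 lower, beside 13009 and 14013 of all 27022 probe sets. These signs share the same arrays and are not separate evidence.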

How the results depend on the processing

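The Rps9 probe set 1434624_x_at passed under all 19 alternatives in which it was tested, from 4.63 to 4.82, with the smallest p of the array in each. The count of member probe sets past the threshold, 1 in the comparison reported, was 2 with median centring, with array weights, with probe sets of several symbols added and without normal replicate 2, and 0 with _at and _a_at members alone or with the brightest probe set of each gene, both of which leave that Rps9 probe set out. Leaving out single arrays gave 1 to 2. The count of genes was 2 with median centring, array weights, a threshold of 0.10 and without normal replicate 2 (range 1 to 2 over single arrays), and 0 with the brightest probe set. The probe sets added were Rps6 1416142_at (0.75 with array weights and 0.91 without normal replicate 2) and, with median centring, Rpl7l1 1439780_at, besides the one of several symbols described above. The count of probe sets departing from their gene's brightest was 0 for _at and _a_at members alone and 0 (Rps9 at 4.79, limma adjusted p = 0.101) when both arrays high in chromaffin genes were left out, an alternative chosen after seeing the data, as was adding probe sets of several symbols. The members' median ran from -0.06 to 0.01 over single arrays left out, positive only without normal replicate 2, and from -0.05 to -0.01 over the other scalings. Over all probe sets 157 passed, against 434 with median centring, 41 without the intensity trend, 253 at 0.10, 29 without both arrays high in chromaffin genes and 47 to 149 without single arrays. With the replicate block 109 passed, 1 of them a member. Deviations of same-numbered arrays correlated at 0.08, -0.11 and -0.20, which shows no strong shared effect of the replicate number. The labels do not say whether the numbers pair the arrays, and so few correlations cannot settle it. Fewer arrays entered the fits that left some out; otherwise the cause was not tested. Dim probe sets were measured less precisely, with a median SE of 0.16 below 2000 and 0.07 above it among members.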
